A study of Mus musculus with 12 samples.

Results

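Liver RNA of adult female mice that lacked estrogen receptor alpha was compared with that of wild-type females on normal diet. The comparison rests on 6 of the 12 arrays of the study: 3 from αERKO mice and 3 from wild-type (WT) mice, chosen by the genotype and diet in their labels. It was described over 12264 genes whose signal exceeded the array median on at least 3 of the 12 arrays, of 18194 genes with a probe set of 1 gene symbol. The αERKO mice are homozygous for a disrupted Esr1 (Esr1-/-) in all tissues, and the WT mice are Esr1+/+, both on a B6.129 background. Both groups were adult females fed NIH-31 chow. The other 6 arrays hold the same genotypes after 2 weeks on a diet with 60 kcal% fat. Whole liver tissue was used, so that fewer cells of a type and less RNA per cell cannot be told apart in these values. Whether the 3 arrays of a group hold RNA of different animals is not stated in the labels. The p-values below therefore describe the spread among arrays alone, and that spread may be technical. It was estimated from all 12 arrays in 1 model, not from these 6 only.

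Estrogen receptor alpha is a nuclear receptor that binds estradiol and regulates transcription. In rodent liver many genes are expressed at different levels in males and females, above all genes of steroid, drug and lipid metabolism. The pattern is known to follow the pulses of growth hormone from the pituitary, which differ between the sexes and pass through the kinase JAK2 and the transcription factor STAT5b, with HNF6, CUX2 and BCL6 acting downstream. A mouse that lacks the receptor in every tissue lacks it in brain, pituitary and ovary as well as in liver, and these data do not separate the tissues.

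Esr1 itself checked the labels. Its brightest probe set gave MAS5 signals of 2438, 3929.6 and 1963 in WT and of 681, 586 and 601 in αERKO (arrays 1, 2 and 3 of each group, here and below). The second probe set gave 890, 988 and 481 in WT against 99.5, 137 and 200 in αERKO. The WT and αERKO signals did not overlap with either probe set, and the log2 differences were -2.07 ± 0.20 (standard error) and -2.30. The remaining probe set was dim, at 59.9, 7.61 and 29.2 in WT and 10.1, 5.30 and 7.49 in αERKO. The signal that remained in αERKO was well above the array medians of 80.5 to 114 for the brightest probe set. Whether its probes fall inside the disrupted stretch was not examined, so the probe set is a check of the labels rather than of the allele. On high-fat diet the difference was -2.05 ± 0.20.

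All 6 arrays were liver by their markers. The hepatocyte markers averaged between 15.3 and 15.7 on the log2(signal + 16) scale on each array, with albumin (Alb) among the brightest signals. Markers of other tissues stood out on 3 arrays. Digestive enzymes of pancreatic acinar cells averaged 13.6 on WT array 2 and 13.2 on αERKO array 1, and between 5.42 and 6.29 on the other 4. Skeletal muscle markers averaged 10.3 on αERKO array 1 and 7.16 on αERKO array 2, and between 5.79 and 6.73 on the rest. Kupffer cell markers lay at 10.5, 10.6 and 10.5 in WT and at 10.5, 10.2 and 9.88 in αERKO. No gene of the acinar, muscle or Kupffer lists was called, where 1.22% of all genes tested were. Counts are therefore also given without WT array 2 and αERKO array 1.

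**Figure D1:**
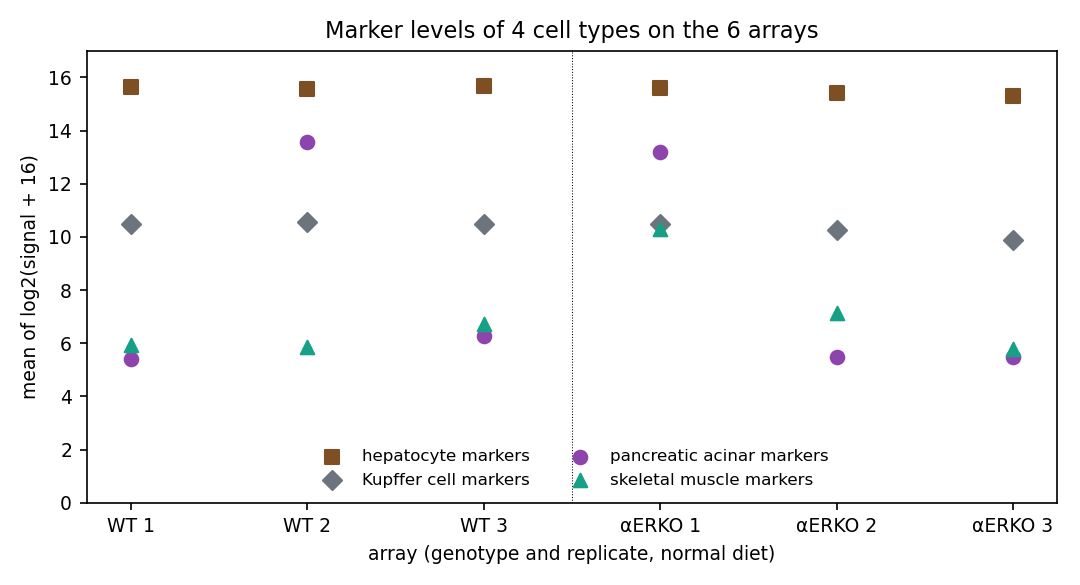
Mean log2(signal + 16) of the markers of 4 cell types on each of the 6 normal-diet arrays. Hepatocyte markers stay between 15.3 and 15.7, while acinar markers reach 13.6 on WT 2 and 13.2 on αERKO 1, and muscle markers reach 10.3 on αERKO 1.

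A small part of the liver transcriptome differed between the genotypes on normal diet. Between αERKO and WT, 150 of the 12264 genes (1.22%) were called at a Benjamini-Hochberg adjusted p under 0.05 in limma, 72 higher in αERKO (0.587%) and 78 lower (0.636%). The 3 αERKO and 3 WT signals did not overlap, called separate below, for 149 of the 150, the exception being Upp2. Over all genes tested, 1938 (15.8%) were separate, 758 of them higher (6.18%) and 1180 lower (9.62%). Differences of at least 2-fold were seen in 33 of the genes called higher and 43 of those called lower, and of at least 8-fold in 6 and 8. The quartiles of all genes were -0.24 and 0.13 on the log2 scale, with a median of -0.05, and the median standard error was 0.20.

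Abundant transcripts carried many of the calls. Among the 10% of genes with the highest mean level, 26 were called higher and 21 lower, against 1 and 1 among the 10% with the lowest. The median difference drifted with level, from -0.17 among the lowest 10% to 0.01 among the highest, and from -0.05 to 0.00 after quantile normalization. Centring each array on its median moved the median of all genes from -0.05 to 0.09, gave 94 calls and raised the share called higher from 48% to 59.6%. Leaving out 1 array gave between 85 and 118 calls, with 85 without αERKO array 2, 95 without WT array 3 and 97 without αERKO array 1. In all 6 such fits 68 genes stayed called, 33 higher and 35 lower. Without both WT array 2 and αERKO array 1 there were 97 calls, and 83 of the 150 genes stayed called. A fit of only the 6 normal-diet arrays gave 71 calls, 70 of them among the 150.

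**Figure D2:**
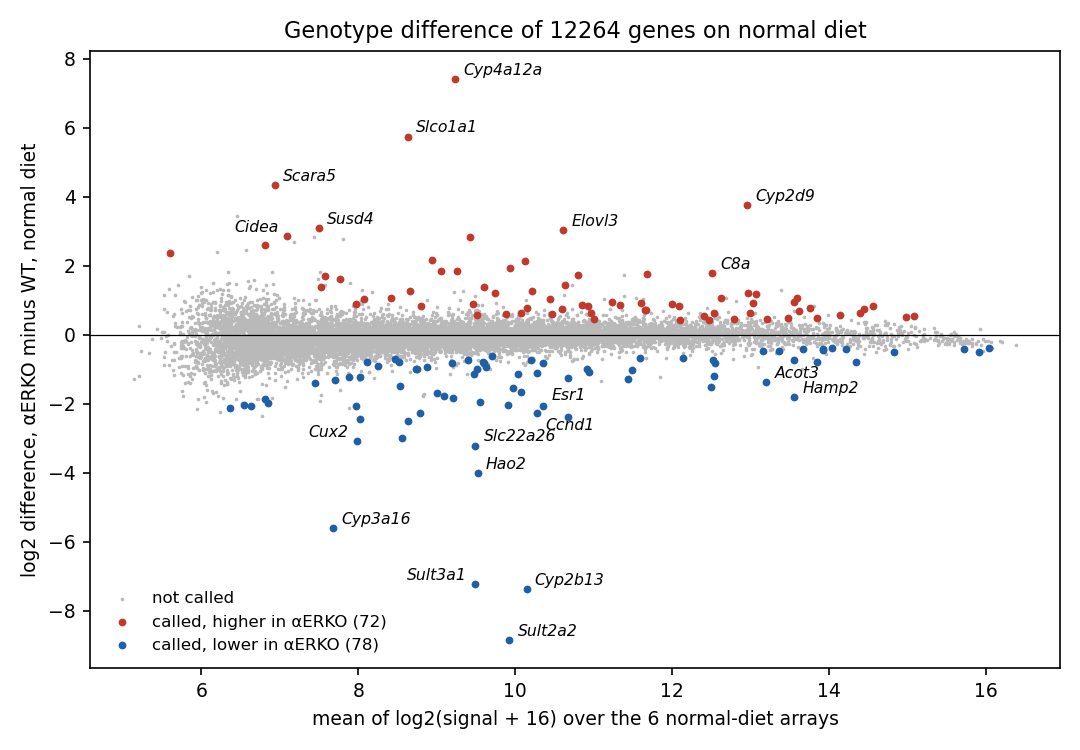
Log2 difference between αERKO and WT on normal diet (vertical axis) against the mean log2(signal + 16) over the 6 arrays (horizontal axis) for the 12264 genes. The 72 genes called higher (red) and the 78 called lower (blue) include a few with differences above 4 or below -4, and most genes lie within 0.5 of 0.

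Genes known to be expressed more in male than in female mouse liver gave more calls among the genes that rose than any other of the lists. Of 25 such genes tested, 16 were called higher in αERKO (0.587% over all genes) and 0 lower, and 24 of the 25 differences were positive. Their median log2 difference was 1.2, against -0.05 over all genes, and 1.18 after quantile normalization and 1.34 after median centring. Without WT array 2 and αERKO array 1, 14 were called. No male mice were measured here, so the sex bias of these genes is background knowledge and not a result. This list and the others were chosen with earlier results of these data known, so their counts are description and not a test.

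Cyp4a12a, a cytochrome P450 that hydroxylates fatty acids including arachidonic acid, gave signals of 77.5, 28.2 and 7.29 in WT and 9659.6, 7314 and 6854 in αERKO. All 3 WT arrays were below their array's median, so the size of the log2 difference, 7.42 ± 0.53, depends on near-background values and on the 16 added. Slco1a1, an organic anion uptake transporter of the hepatocyte surface, went from 219, 8.13 and 11.6 to 3893, 2744 and 2245, and WT array 1 stood above the other WT arrays. Its log2 difference was 5.75 ± 0.82 (adjusted p = 0.00177). Cyp2d9, a steroid 16-alpha-hydroxylase, showed little spread within either group, with 2168, 1838 and 2441 in WT and 29683, 29416 and 28452 in αERKO. Both genotypes expressed it above the array medians, and its difference of 3.76 ± 0.15 had the smallest standard error among the 15 largest rises (adjusted p = 3.32e-09).

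Several of the other male-biased genes code for secreted or membrane proteins. Susd4, a regulator of complement at the cell surface, had signals of 105, 41.8 and 17.7 in WT and 409.8, 589 and 549 in αERKO (3.09 ± 0.36). Scara5, a scavenger receptor that binds ferritin, was at 8.97, 23.9 and 4.33 in WT, all below the array medians, and at 1245, 161 and 726 in αERKO (4.33 ± 0.73). Omd, a small leucine-rich proteoglycan of extracellular matrix, was likewise dim in WT, at 13.1, 33.6 and 48.5, and reached 287, 209.98 and 299 in αERKO. Its αERKO arrays were all above its WT arrays (2.62 ± 0.31, adjusted p = 0.000298). Nox4, an NADPH oxidase that produces hydrogen peroxide, rose from 629, 479.7 and 446 to 2698, 2111 and 2206. The αERKO signals of Nox4 were again separate from WT (2.15 ± 0.19, adjusted p = 2.07e-05).

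Most of the remaining called members were enzymes. Elovl3, which elongates saturated and monounsaturated fatty acids, was at 745, 391 and 512 in WT and 4405, 5223 and 3838 in αERKO (3.03 ± 0.20). Nat8 and Nat8f5, neighbouring genes of one acetyltransferase family, went from 258, 385 and 135 to 1670.3, 2089 and 1733 and from 201, 273 and 179 to 922, 903 and 1288. Transcripts of near-identical genes can bind each other's probes, which makes single values in the Nat8, Cyp2b, Cyp3a, Slc22a, Sult and Mup families uncertain. Cyp7b1, an oxysterol 7-alpha-hydroxylase that also inactivates steroids, gave 1964, 1964 and 1416 in WT and 5145, 5914 and 6986 in αERKO (1.75 ± 0.21). A second Cyp7b1 probe set showed the same, with 1088, 1014 and 879 against 3041, 3653 and 4128, while the remaining one, at 53.7 or less on all 6 arrays, ran the other way (-1.12). Ugt2b1, a glucuronosyltransferase, rose by 0.79 ± 0.11, and C9 and C6 are described with complement below. Gstp1 (0.53 ± 0.10) and Nudt7 (0.64 ± 0.12), a glutathione transferase and a peroxisomal coenzyme A hydrolase, had the smallest rises among the called members of the list. Gstp1 was not called without WT array 1, WT array 2 or αERKO array 1 (highest adjusted p = 0.0655), and Nudt7 not without αERKO array 1 or αERKO array 2 (highest adjusted p = 0.0947). With the mean of all probe sets of a gene in place of the brightest, Cyp7b1 was at 0.82 (adjusted p = 0.142) and Nudt7 at 0.39 (adjusted p = 0.218), and neither was called.

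The 9 list members that did not pass the test differed less or scattered more. Egfr, the epidermal growth factor receptor, was at 5086, 3317 and 2048 in WT and 8867, 3813 and 6372 in αERKO, and the groups overlapped (0.88 ± 0.45, adjusted p = 0.467). Mup3, a major urinary protein, spread from 13805 to 46444 within WT alone (0.33 ± 0.34). Bcl6, a repressor of female-biased genes, was at 501, 565 and 554 in WT and 284, 1745 and 895 in αERKO, where αERKO array 1 was the lowest of all 6 (0.50 ± 0.49). Lifr, the receptor of leukemia inhibitory factor, differed by 0.30 ± 0.16 and Cspg5 by -0.25 ± 0.38, the only negative value of the list.

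**Figure D3:**
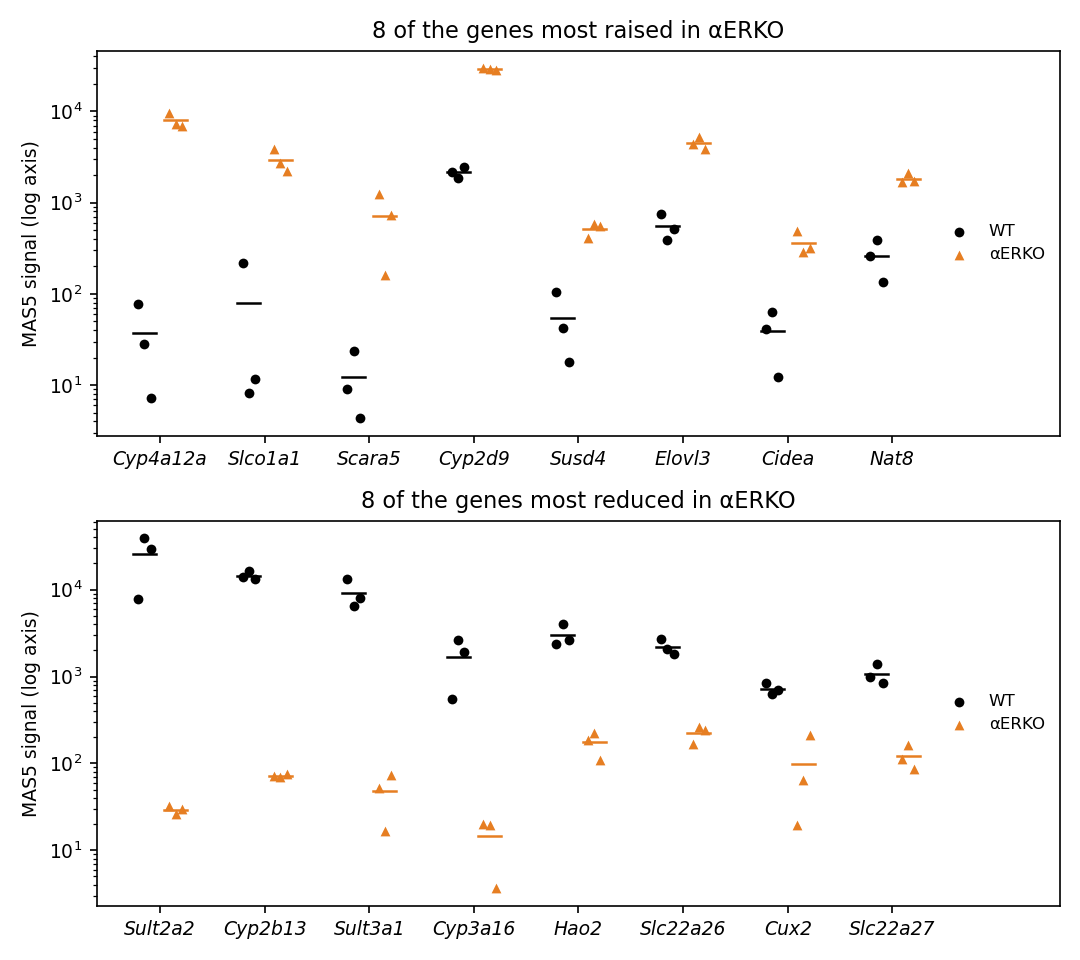
MAS5 signal on each array (log axis) for 8 of the genes most raised (top) and 8 of those most reduced (bottom) in αERKO on normal diet. Circles are the 3 WT arrays, triangles the 3 αERKO arrays and short lines the group means; the 2 groups do not overlap for any of the 16 genes.

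Genes known to be higher in female mouse liver went the other way. Of 28 tested, 16 were called lower in αERKO (0.636% over all genes) and 0 higher, and 24 of the differences were negative. The signals of 20 were separate and lower, against 9.62% of all genes. This list too was chosen with earlier results of these data known. The median of the list was -1.0, the same after quantile normalization and -0.86 after median centring. Without WT array 2 and αERKO array 1, 13 were called.

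The largest losses were in sulfotransferases and cytochromes P450. Sult2a2, which sulfates hydroxysteroids, was at 7770.4, 39168 and 29592 in WT and 32.0, 26.5 and 29.6 in αERKO (-8.84 ± 0.79, adjusted p = 2.53e-05). Sult3a1, an amine sulfotransferase, was at 13246, 6416 and 8074 in WT and 52.6, 16.6 and 74.1 in αERKO (-7.24 ± 0.47). WT array 1 held the lowest WT signal of Sult2a2 and the highest of Sult3a1, and all 3 αERKO arrays were below their medians for both genes. Cyp2b13 was nearly constant within groups, at 14020.0, 16196 and 13398 in WT and 71.1, 70.1 and 75.2 in αERKO. Its αERKO signals were below the array medians too, and the difference was -7.36 ± 0.29 (adjusted p = 3.32e-09). Cyp2b9, its neighbour in the genome, fell less, from 9550.4, 11683 and 8361 to 2816, 4428 and 3126 (-1.52 ± 0.17), and stayed far above the array medians in αERKO.

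Cyp3a16 and Cyp3a44 belong to the cytochrome P450 family that metabolises steroids and many drugs. Cyp3a16 was at 554, 2631 and 1906 in WT, with WT array 1 the lowest, and at 20.2, 19.5 and 3.67 in αERKO (-5.60 ± 0.64). Cyp3a44 was at 1082, 1048 and 702 in WT and 96.0, 186 and 187 in αERKO (-2.51 ± 0.29). Cyp17a1, the 17-alpha-hydroxylase and 17,20-lyase of steroid synthesis, fell from 3073, 3347 and 4972 to 592, 838 and 678 (-2.39 ± 0.22). In each of these 3 genes the highest αERKO array lay below the lowest WT array. Hao2, a peroxisomal oxidase of 2-hydroxy acids, gave 2385, 3986 and 2613 in WT and 187, 225 and 110.4 in αERKO (-4.0 ± 0.30).

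Transporters and secreted peptides followed. Slc22a26 and Slc22a27, organic anion transporter family members, went from 2729, 2080.3 and 1814 to 168, 263 and 241 and from 992, 1391 and 842 to 113, 164 and 85.3. Their log2 differences were -3.21 ± 0.21 and -3.01 ± 0.22, and Slc22a29, which lies beside them and was in the transporter list, fell by 1.94 ± 0.16. Hamp2, a relative of the iron hormone hepcidin, dropped from 22476, 23278 and 21883 to 8835, 5687 and 5189 (-1.82 ± 0.20). Cux2, a homeobox repressor expressed in female liver, was at 838, 633 and 693 in WT and 19.6, 64.9 and 212 in αERKO (-3.08 ± 0.47, adjusted p = 0.00338). The αERKO arrays differed among themselves more than the WT arrays for Cux2, a second Cux2 probe set differed by -1.36, and the remaining one did not follow (0.02, with 309, 279 and 335 against 285, 445 and 237).

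The 4 weakest calls of the list depended on single arrays. Acot3 (-1.38 ± 0.27) was not called without any 1 of the 3 WT arrays (highest adjusted p = 0.0789), and Acot4 (-0.99 ± 0.22) not without any 1 of them or αERKO array 1 (0.145). Rtn4 (-0.39 ± 0.08) stayed called only without WT array 3 and Abcb1a (-0.80 ± 0.17), a multidrug efflux pump, only without WT array 1, with highest adjusted p values of 0.120 and 0.146. With the mean of its probe sets Rtn4 was at -0.24 (adjusted p = 0.628). The 4 members that were separate and lower but not called were Nipal1, Atp6v0d2, Trim24 and Cyp4a14, with differences from -1.0 to -0.24. Positive values, none called, were found for Sult1e1, Gna14, Cyp2b10 and Tox, from 0.01 to 0.25. Igfbp2, which binds insulin-like growth factors in plasma, differed by -0.26 ± 0.17 on normal diet with overlapping groups.

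The regulators that are known to act on sex-biased liver genes gave a single call. Of 26 such genes only Cux2 was called (3.85%, against 1.22% of all genes). The median of the list was -0.05, as over all genes, and after median centring it was 0.10 beside 0.09 over all genes. Stat5b, the main growth hormone-activated factor, gave 617, 534 and 588 in WT and 508, 703 and 522 in αERKO (-0.02 ± 0.18). Ghr, the growth hormone receptor, was separate and higher, 16508, 16543 and 15583 against 18364, 19516 and 18056, without passing the test (0.20 ± 0.09, adjusted p = 0.372). Trim24 was separate and lower (-0.34 ± 0.13, adjusted p = 0.307). In the list of the growth hormone and insulin-like growth factor axis 0 of 18 genes were called. Igf1 differed by -0.39 ± 0.15 (adjusted p = 0.332) with αERKO array 1 inside the WT range, and Socs3 by 1.46 ± 0.53 (adjusted p = 0.279) with a wide spread in both groups. At this precision a difference of the size seen for Igf1 was not detectable.

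Among steroid receptors and their coregulators, Esr1 was the only gene of 14 called (7.14%, against 1.22% of all genes). It is the disrupted gene itself, so that share follows from the design, and no other member of the list was called. The median of the list was -0.17, and -0.03 after median centring. Ncoa1 and Ncoa3, coactivators of nuclear receptors, were separate and lower without passing the test, at -0.39 ± 0.16 and -0.18 ± 0.15.

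Enzymes of drug and steroid metabolism moved in both directions. Of 41 cytochromes P450 tested, 3 were called higher and 7 lower (24.4%, against 1.22% of all genes). The signals of 24 were separate, 10 higher and 14 lower, where 6.18% and 9.62% of all genes were. The median of the list was 0.13. Beside those already described, Cyp2c68 fell from 30379.6, 31060.5 and 21462 to 15135, 18510.2 and 13789 (-0.80 ± 0.14), and was not called without WT array 2 and αERKO array 1 together (adjusted p = 0.100). Cyp2c39 fell by 0.92 ± 0.20 and Cyp2f2, a periportal enzyme, rose by 0.62 ± 0.12. These last calls each ended in several fits that left out 1 array, with Cyp2c39 kept only without WT array 2 or αERKO array 1 (highest adjusted p otherwise 0.129) and Cyp2f2 only without αERKO array 3 (0.122). Cyp2e1, the abundant ethanol-oxidising enzyme of pericentral hepatocytes, was at 71085, 78248 and 75836 in WT and 55929, 60104 and 46920.4 in αERKO, separate but just short of the threshold (-0.47 ± 0.11, adjusted p = 0.0502).

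Conjugating enzymes and transporters split in the same way. Of 19 sulfotransferases and glucuronosyltransferases, Ugt2b1 and Sult2a8 rose and Sult2a2 and Sult3a1 fell (21.1% called, against 1.22% of all genes). Sult2a8, a bile acid sulfotransferase of mouse liver, went from 21134, 16541 and 14468 to 28219.5, 30535 and 27248 (0.74 ± 0.12), and lost its call without WT array 2 and αERKO array 1 together (adjusted p = 0.0635). Of 20 glutathione transferases Gstp1 and Gsta2 were called higher (10%). Gsta2 (1.19 ± 0.26) was kept only without WT array 1 or αERKO array 3, with a highest adjusted p of 0.183 otherwise. Of 26 membrane transporters 2 rose and 5 fell (26.9% called). The median of the list was -0.06, beside -0.05 over all genes, and after median centring 0.08 beside 0.09. Abcg2, an efflux pump for sulfated steroids and urate, rose from 2372, 2166 and 2163 to 4706, 4219 and 3894 (0.93 ± 0.11, adjusted p = 0.00039), while Slco1a4, a relative of Slco1a1 for bile salts and steroid sulfates, fell by 0.82 ± 0.18 and was kept only without WT array 2 (highest adjusted p otherwise 0.170).

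In bile acid synthesis 1 of 18 genes rose and 1 fell (11.1% called, against 1.22% of all genes), with a median of 0.08. The rise was Cyp7b1, and the fall was Cyp39a1, which hydroxylates 24-hydroxycholesterol. Cyp39a1 was at 4559.6, 3649.8 and 4784 in WT and 1826, 1899 and 1532 in αERKO, separate in all arrays (-1.29 ± 0.16, adjusted p = 0.000327). Cyp7a1, the rate-limiting enzyme of the classic pathway, was at 2126, 9094 and 9079 in WT and 1910.5, 2162 and 3267 in αERKO. WT array 1 lay within the αERKO range, and the difference did not pass the test (-1.23 ± 0.45, adjusted p = 0.276). Cyp8b1, which directs synthesis towards cholic acid, differed by 0.61 ± 0.28 (adjusted p = 0.413).

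**Figure D4:**
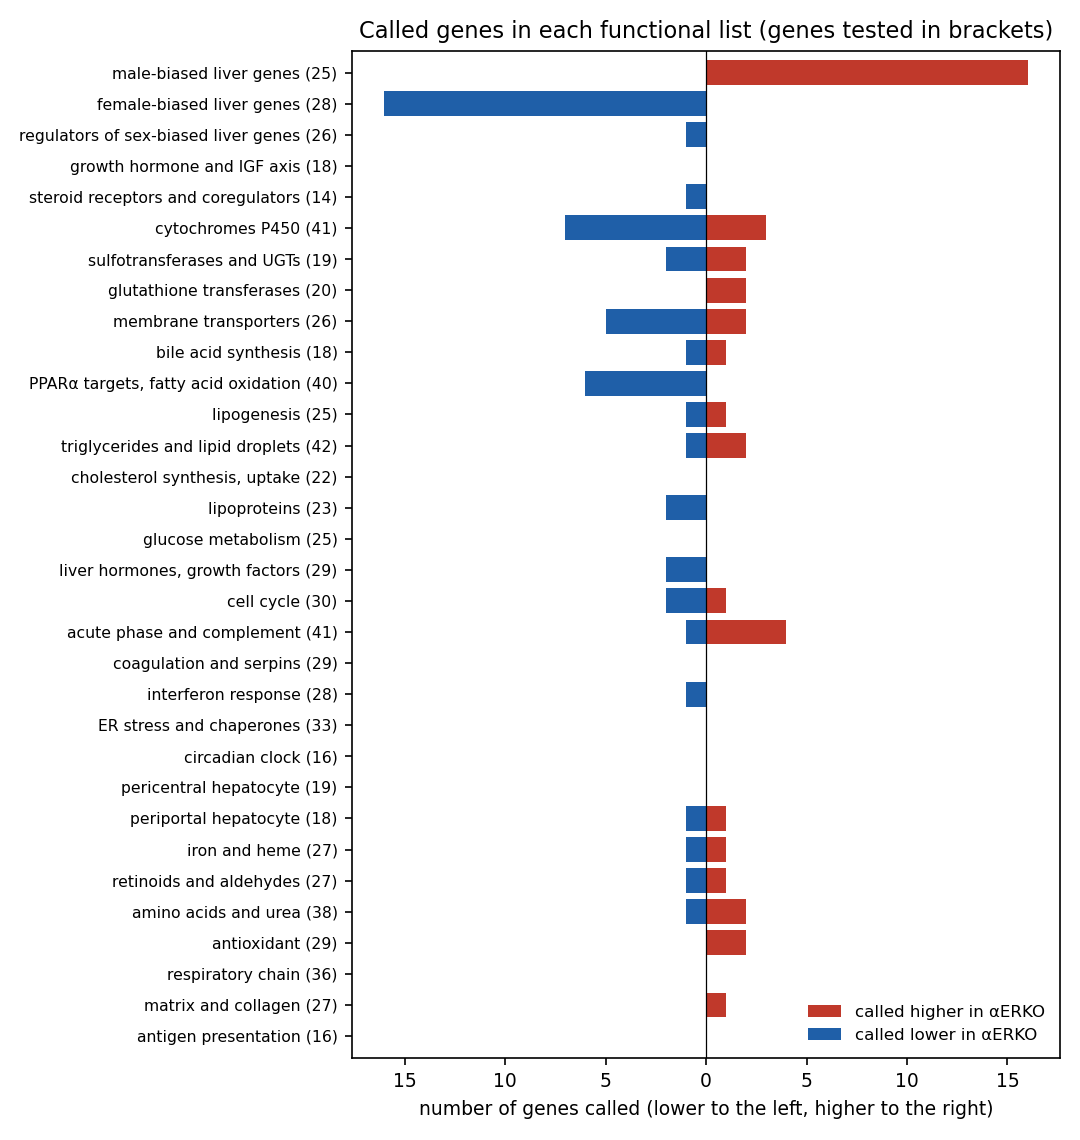
Number of genes called lower (blue, to the left) and higher (red, to the right) in αERKO in each of 32 functional gene lists, with the number of genes tested in brackets. The male-biased list has 16 calls to the right, the female-biased list 16 to the left, and most other lists have 0 to 3 on a side. The lists were chosen with earlier results of these data known.

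Targets of PPARα, the fatty acid sensor that drives fatty acid oxidation in liver, gave 6 calls lower in αERKO and 0 higher among the 40 targets and oxidation genes tested. Of all genes 0.636% were called lower. Acot3 and Acot4, among the 6, were also members of the female-biased list. In the PPARα list 33 differences were negative, 22 were separate and lower and 1 was separate and higher. Over all genes 7091 of 12264 differences were negative, 9.62% of genes were separate and lower and 6.18% separate and higher. The median of the list was -0.22, against -0.05 over all genes, and -0.19 after quantile normalization and -0.08 after median centring. The count was unstable: it was 1 without WT array 1 and without WT array 3, 3 without WT array 2 and without αERKO array 1, and 4 without αERKO array 2 or αERKO array 3. It was 2 without WT array 2 and αERKO array 1 together, and 0 in a fit of only the 6 normal-diet arrays. These genes are abundant hepatocyte transcripts, and hepatocyte markers moved with them: 1 of 10 was called lower, 6 were separate and lower, and their median was -0.23, -0.03 after quantile normalization and -0.09 after median centring. The part of this in the PPARα list was not tested.

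Within the list, thioesterases that release free fatty acids from coenzyme A differed most. Acot2, the mitochondrial enzyme, was at 4479, 3167 and 4767 in WT and 1679, 2070.2 and 2329 in αERKO (-1.01 ± 0.17, adjusted p = 0.00763), and it was the only one of the 6 to stay called without each array in turn. The peroxisomal Acot3 was at 16328, 14909 and 14172 in WT and 3038, 8438 and 7619 in αERKO, where array 1 was the lowest. Acot4 was at 2861, 2383 and 2866 and 898, 1660.2 and 1643. Ehhadh, the bifunctional enzyme of peroxisomal oxidation, differed by -0.49 ± 0.09 and was not called without WT array 1, WT array 3 or αERKO array 1 (highest adjusted p = 0.0950). Eci1, an isomerase for unsaturated fatty acids, and Bdh1, which interconverts the ketone bodies, differed by -0.42 ± 0.09 and -0.45 ± 0.10, and Eci1 was kept only without αERKO array 1 and Bdh1 in none of the 6 fits (highest adjusted p of 0.156 and 0.148). Ppara itself was separate and lower without passing the test (-0.33 ± 0.13, adjusted p = 0.307), as was Cpt1a, the entry step of mitochondrial oxidation (-0.21 ± 0.09, adjusted p = 0.33).

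Of genes of fat synthesis and storage, 2 of 25 lipogenic genes (8%) and 3 of 42 genes of triglycerides and lipid droplets (7.14%) were called, against 1.22% of all genes. The medians of these lists were -0.12 and -0.07, against -0.05 over all genes, and after median centring 0.02 and 0.07 against 0.09. Among the lipogenic genes, Elovl3 rose and Tkfc, which phosphorylates dihydroxyacetone and glyceraldehyde in fructose metabolism, fell by 0.98 ± 0.20, kept only without WT array 1 or αERKO array 3 (highest adjusted p otherwise 0.144). Fasn, fatty acid synthase, was at 1378, 1504 and 1491 in WT and 833, 943 and 910.2 in αERKO, separate but not called (-0.69 ± 0.27, adjusted p = 0.304), and Elovl6 was at -0.66 ± 0.16 (adjusted p = 0.0647). Among the genes of triglycerides and lipid droplets, Cidea and Fitm1 rose and Vldlr fell. Cidea, a lipid droplet protein of brown fat and fatty liver, was at 41.5, 63.5 and 12.3 in WT, below the array medians, and at 492, 284 and 318 in αERKO (2.87 ± 0.52). Its call ended without WT array 3 and without αERKO array 1 (highest adjusted p = 0.0664). Fitm1, an endoplasmic reticulum protein of lipid droplet formation that is typical of muscle, was at 827, 1013 and 1012 in WT and 2784, 3141 and 2026 in αERKO (1.45 ± 0.20, adjusted p = 0.00153). Muscle markers on the 3 αERKO arrays averaged 10.3, 7.16 and 5.79. Cidea and Fitm1 both kept their calls with the acinar and muscle marker scores as covariates. The part of muscle in their values was not otherwise tested.

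Vldlr, the receptor of very low density lipoprotein, was measured by several probe sets. Its brightest probe set was at 1701, 1687 and 2048 in WT and 850.1, 856 and 778 in αERKO (-1.11 ± 0.16, adjusted p = 0.00208). All 6 of its probe sets were lower in αERKO, by -0.50 to -1.38. Of 23 lipoprotein genes 2 were called lower and 13 were separate and lower, against 0.636% and 9.62% of all genes. The median of the list was -0.20, and -0.08 after quantile normalization and -0.06 after median centring. Apom, the carrier of sphingosine 1-phosphate, was at 18302, 16914 and 12049.8 in WT and 9475, 10744 and 7806 in αERKO (-0.74 ± 0.15), and was kept only without WT array 3 or αERKO array 2 (highest adjusted p otherwise 0.104). Apoa2 was at 75976, 72242 and 81822 and 57816, 63656 and 54678 (-0.39 ± 0.09) and was kept in none of the fits that left out 1 array (0.157). Hepatocyte markers had a median of -0.23, as given above, and their part was not tested. Of 22 genes of cholesterol synthesis and uptake 0 were called, and the lowest p values belonged to Npc1l1 (-0.96 ± 0.53) and Npc1 (-0.35 ± 0.19), proteins of cholesterol uptake and trafficking.

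In the list of acute-phase and complement genes, C6, C8a, C8b and C9 were called higher. The terminal components C5 to C9 assemble into the pore of the membrane attack complex. C6 went from 277, 180.0 and 365 to 985, 917 and 1105 (1.86 ± 0.24), and C9 from 5988, 5486 and 4467 to 13823, 12689 and 10215 (1.2 ± 0.14). C8a and C8b, neighbouring genes for chains of C8, went from 5007, 3483 and 1748 to 10682, 10404 and 11352 and from 1131, 948 and 829 to 3283, 3455 and 2943. The 4 genes were separate in all arrays and stayed called without each array in turn. Of the other terminal members, C8g, the third chain of C8, gave 16939, 16191 and 16256 in WT and 15821, 17904 and 14895 in αERKO (-0.03 ± 0.08), and Hc, which codes for C5, differed by -0.01 ± 0.09. In the whole list of 41 acute-phase and complement genes 4 were called higher and 1 lower (12.2%, against 1.22% of all genes). The median of the list was 0.00. The gene called lower was Mbl2, a mannose-binding lectin (-0.41 ± 0.09), and it was kept in none of the 6 fits that left out 1 array (highest adjusted p = 0.133). C6 and C9 were also members of the male-biased list.

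Growth control genes gave a few large differences. Ccnd1, cyclin D1, which drives entry into the cell cycle, was at 2202, 3758 and 2382 in WT and 369, 695 and 643 in αERKO. All 3 of its probe sets were lower, and the brightest differed by -2.27 ± 0.23 (adjusted p = 8.59e-05). Of 30 cell cycle genes 2 were called lower and 1 higher (10%, against 1.22% of all genes), with a median of 0.01. The others were Cdkn2c, a kinase inhibitor (-0.99 ± 0.21), kept only without WT array 1, and Gadd45a, a stress-induced gene (1.05 ± 0.23), kept only without WT array 2 or αERKO array 2, with highest adjusted p values of 0.145 and 0.172. Inhba, the beta A subunit of activin, was at 546, 567 and 711 in WT and 246, 165 and 209 in αERKO (-1.49 ± 0.21, adjusted p = 0.00187). A second, dim probe set of Inhba was at 97.3 or less on all 6 arrays, with overlapping groups (-0.18), and with the mean of both the gene was at -0.84 and was not called (adjusted p = 0.234). It and Hamp2 were the 2 of 29 liver hormones and growth factors that were called (6.9%).

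Amino acid, aldehyde and heme enzymes included rises that stayed called without each array in turn. Of 38 genes of amino acid and urea metabolism, 2 were called higher, and Hao2 lower (7.89%, against 1.22% of all genes). Agxt2, an aminotransferase of mitochondria, went from 3791, 3446 and 2613 to 5819, 5920.2 and 5566 (0.83 ± 0.13). Hao1, the peroxisomal glycolate oxidase, went from 6457, 7282 and 4719 to 10312, 12527 and 11712 (0.92 ± 0.14), opposite in direction to its relative Hao2. Aox3, an aldehyde oxidase, went from 4305, 4065 and 4664 to 9476, 9546 and 8163 (1.06 ± 0.14). It and Nox4 were the calls among 29 antioxidant genes (6.9%). Alas2, the heme synthesis enzyme of red cell precursors, was at 390.1, 252 and 289.96 in WT and 1407, 1168 and 936 in αERKO (1.86 ± 0.22), and was the only red cell marker that passed the filter on low signals. Of 27 iron and heme genes Scara5 rose and Hamp2 fell (7.41% called). The same share was called in the list of 27 retinoid and aldehyde genes. There Bco1, which cleaves beta-carotene, fell by 1.21 ± 0.22 and Aldh1a7 rose by 0.58 ± 0.13. Bco1 was not called without WT array 1, WT array 3 or αERKO array 2 (highest adjusted p = 0.0664), and Aldh1a7 was kept only without WT array 2 (0.168).

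Albumin, the main plasma protein made by hepatocytes, was at 68659.9, 68869.5 and 81701 in WT and 53639, 53687 and 47802 in αERKO (-0.50 ± 0.10), kept only without WT array 1 (highest adjusted p otherwise 0.106). It and Cyp2f2, in opposite directions, were the calls among 18 periportal genes (11.1%, against 1.22% of all genes), and 0 of 19 pericentral genes were called. Of 29 coagulation factors and serpins 0 were called, and 10 were separate and lower, against 9.62% of all genes. The median of the list was -0.06, beside -0.05 over all genes, and 0.09 for both after median centring. Plg, plasminogen, and Serpinc1, antithrombin, had the lowest p values (-0.25 ± 0.07 and -0.25 ± 0.07, adjusted p = 0.116 and 0.146). Oas1a, an interferon-induced enzyme, was the only call of 28 interferon genes (3.57%). It differed by -0.70 ± 0.14 and was kept only without αERKO array 3 (highest adjusted p otherwise 0.0881).

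In glucose metabolism 0 of 25 genes were called. G6pc, glucose-6-phosphatase, came nearest, at 11196, 13317 and 11799.8 in WT and 4542, 7898 and 7057 in αERKO, separate but with an adjusted p of 0.0855 (-0.93 ± 0.23). Ugp2, which makes UDP-glucose, was separate and higher (0.45 ± 0.12, adjusted p = 0.095). Of 33 chaperones and genes of endoplasmic reticulum stress 0 were called, though 29 differences were positive, with a median of 0.11 against -0.05 over all genes. Creld2, a secreted chaperone, was separate and higher (0.57 ± 0.18, adjusted p = 0.206). Of 16 clock genes 0 were called, and Per3 (-1.13 ± 0.43) and Per2 (-0.54 ± 0.20) had the lowest p values. The respiratory chain (0 of 36 called, all between -0.27 and 0.31) and antigen presentation (0 of 16) showed no call. Omd was the only call of 27 matrix genes (3.7%, against 1.22% of all genes).

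Markers of the other cell types of liver gave no call, where 1.22% of all genes tested were called. Lists this short can hold 0 calls at that share, so their counts do not describe the amount of a cell type. Of 15 Kupffer cell markers 14 differences were negative and 4 separate and lower, with a median of -0.34, and -0.20 after median centring. Over all genes 7091 of 12264 differences were negative and 9.62% of genes were separate and lower. The medians over all genes were -0.05, and 0.09 after median centring. C1qa, a chain of complement C1q made by macrophages, was at 2045, 2549 and 2318 in WT and 1751, 1615 and 1177 in αERKO (-0.61 ± 0.17, adjusted p = 0.114). The 12 stellate cell, 13 endothelial, 4 cholangiocyte, 8 lymphocyte and 6 neutrophil markers that were tested also gave 0 calls, and Cidea was the only call of the 4 adipocyte markers. All 4 differences of these adipocyte markers were positive, with a median of 0.57. Over all adipocyte markers on the array, the averages were 7.12, 7.46 and 7.30 in WT and 8.16, 7.82 and 7.33 in αERKO. Adipoq, a defining product of fat cells, chosen here after its values were seen, was at 15.1, 95.2 and 47.4 in WT and 160.3, 97.7 and 26.4 in αERKO. The part of fat tissue in these values was not tested. The 11 muscle markers had a median of 1.31, and of 0.02 without WT array 2 and αERKO array 1. Mb, myoglobin, was at 9.01, 14.2 and 8.76 in WT and 4195, 104 and 32.5 in αERKO.

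Of the 150 called genes, 83 belonged to none of the 43 lists. The largest losses among them were Tafa2, a secreted chemokine-like protein, Pcp4l1, a small calmodulin-binding protein, and Ltc4s, leukotriene C4 synthase. Tafa2 was at 609.7, 728 and 458 in WT and 75.2, 111 and 103 in αERKO (-2.44 ± 0.22), and Pcp4l1 at 894, 882 and 1081 and 149, 176 and 242 (-2.26 ± 0.23). Both were separate and stayed called without each array in turn. Ltc4s was at 146, 115 and 224 in WT and 25.7, 22.6 and 21.6 in αERKO, all of the latter below the array medians, and was kept only without WT array 2 (highest adjusted p otherwise 0.109).

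Among the rises outside the lists were Mup10, a major urinary protein (725, 418 and 381 against 1392, 2202 and 2219), and Zfp979 and Snhg11. Mup10 was not called without WT array 3 (adjusted p = 0.0530), and Zfp979 and Snhg11 were kept in none of the 6 fits (highest adjusted p of 0.175 and 0.116). Their differences were 1.92, 2.38 and 1.71.

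Several called genes had probe sets that did not go the same way. Of the 68 called genes with several probe sets, all had the same sign in 48 and at least 1 went the other way in 20. Aldh7a1 rose from 11684, 12240.1 and 13183 to 17174, 17969.8 and 16940.0 by its bright probe set, and its other 2, at 103 or less on every array, differed by -0.27 and -0.23. Il1rap, the accessory chain of the interleukin-1 receptor, rose from 7837, 8192 and 8212 to 11259, 11448 and 10319, while a probe set at 138, 148 and 165 in WT was at 115, 125 and 92.5 in αERKO. Its call ended without any of WT arrays 1 and 2 and αERKO arrays 1 and 2 (highest adjusted p = 0.103). Rnf170, a ubiquitin ligase of the endoplasmic reticulum, had 2 probe sets well above the array medians that did not move together. The brightest fell from 1806, 1857 and 2141 to 384, 511 and 483 (-2.04 ± 0.25), and the other was at 949, 944 and 777 in WT and 880, 1007 and 1007 in αERKO (0.12). Pnn, a splicing-associated protein, likewise rose by 0.85 with its brightest probe set and gave -0.15 and -0.11 with the others. With the mean of all probe sets Il1rap was at 0.05, Rnf170 at -0.64 and Pnn at 0.20, and none of these 3 was called (adjusted p = 0.923, 0.200 and 0.719). Which transcripts these probe sets read was not examined.

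Some called genes lay beside each other, and how many of any 150 tested genes would do so was not examined. Ordered along the genome in the RefSeq gene table, 37 of the 150 fell into 17 runs with at most 2 tested genes between neighbours, and in 11 runs all members moved the same way. One was the Slc22a26, Slc22a27 and Slc22a29 group, and another Acot2, Acot4 and Acot3, where Acot1 lies among them at -0.57 ± 0.28 without a call. Other runs split. At Slco1a4 and Slco1a1 one transporter fell and the other rose, at Sult2a2 and Sult2a8 one sulfotransferase fell and the other rose, and beside the falling Cyp2b13 and Cyp2b9 lay the rising Cyp2f2. Members of such families can share probes, as said above.

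The 29 nearest tested neighbours of Esr1 were also examined, since a gene disrupted in one strain and crossed to another can keep flanking sequence of the first. None of the 29 was called, and 5 were separate, where 15.8% of all genes tested were separate. The differences of the 29 ran from -0.67 to 0.61 with a median of 0.05. On the whole chromosome 9 of 612 genes other than Esr1 were called (1.47%, against 1.22% of all genes). Of these, Vnn3, Enpp3, Sult3a1, Rsph4a and Smpd2 lay nearest, at 62 to 117 places from Esr1 in the order of tested genes, and the other 4 at 266 to 558 places. Lats1, a kinase of the Hippo pathway, chosen here after its values were seen, had the smallest adjusted p among the separate neighbours (0.58 ± 0.15, adjusted p = 0.0864).

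Promoter sequence was set beside these values for 120 of the 150 called genes that have a window of 250 bases before to 50 bases after the start in RefSeq (GRCm38.p6), 58 called higher and 62 lower. Windows of 9886 of the genes tested and of 27025 genes in all were searched in the same way, on both strands. A gene with several windows was counted once if any of them held a match. The STAT5 motif TTCNNNGAA was in windows of 14 of the 120 genes (11.7%), 5 called higher (8.62%) and 9 called lower (14.5%). The same motif was found for 8.26% of the genes tested and 9.55% of all genes with a window. The HNF6 motif ATTGAT was in 15 (12.5%), 7 and 8 of them, against 5.31% and 8.63%. The Cux motif ATCGAT was in 1 (0.833%), against 0.991% and 1.02%, and CCAAT in 63 (52.5%), against 42.3% and 41.1%. ATTGAT and CCAAT can overlap, since the reverse complement of CCAAT is ATTGG. The palindromic estrogen response element, with 3 free bases between its arms, was in 0 of the 120, against 2 of 9886 (0.0202%) and 20 of 27025 (0.0740%). A match is a description of letters, not of binding, and no match says only that these letters are not in this window.

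Windows of 4 genes are shown because they belong to the large differences above and hold a STAT5 match, and in the first 3 an HNF6 match too. The matches are in capitals. Sult3a1 is at chr10:33857472-33857771 (plus strand), Slc22a26 at chr19:7802618-7802917 (minus strand), C8a at chr4:104876349-104876648 (minus strand) and Nox4 at chr7:87246399-87246698 (plus strand), all in GRCm38.p6. The first STAT5 match starts 109 bases before the start of Sult3a1, 141 before Slc22a26, 228 before C8a and 222 before Nox4.
Sult3a1: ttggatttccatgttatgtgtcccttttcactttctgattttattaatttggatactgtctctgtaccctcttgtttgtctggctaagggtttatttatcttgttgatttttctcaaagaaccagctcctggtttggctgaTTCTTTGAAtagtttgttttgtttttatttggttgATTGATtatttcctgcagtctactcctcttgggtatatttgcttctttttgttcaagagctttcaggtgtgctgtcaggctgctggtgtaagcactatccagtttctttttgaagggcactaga
Slc22a26: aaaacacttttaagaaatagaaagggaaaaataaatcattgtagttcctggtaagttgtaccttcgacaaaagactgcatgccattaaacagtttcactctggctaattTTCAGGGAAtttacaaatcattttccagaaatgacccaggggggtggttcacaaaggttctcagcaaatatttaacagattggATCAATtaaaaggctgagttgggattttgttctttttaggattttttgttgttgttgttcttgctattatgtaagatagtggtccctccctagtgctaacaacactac
C8a: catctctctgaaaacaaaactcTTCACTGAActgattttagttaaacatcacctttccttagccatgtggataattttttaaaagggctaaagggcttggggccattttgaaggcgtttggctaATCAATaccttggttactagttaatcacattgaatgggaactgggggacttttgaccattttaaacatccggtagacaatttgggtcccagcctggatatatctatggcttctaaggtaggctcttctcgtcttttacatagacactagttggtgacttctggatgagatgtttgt
Nox4: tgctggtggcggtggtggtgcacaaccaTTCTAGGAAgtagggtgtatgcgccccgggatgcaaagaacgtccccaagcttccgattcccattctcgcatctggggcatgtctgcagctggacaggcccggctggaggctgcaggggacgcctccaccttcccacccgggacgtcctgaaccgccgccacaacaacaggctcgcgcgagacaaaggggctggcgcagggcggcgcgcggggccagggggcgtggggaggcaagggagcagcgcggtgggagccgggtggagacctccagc
The log2 differences were -7.24 for Sult3a1 and -3.21 for Slc22a26, and 1.78 for C8a and 2.15 for Nox4, so the STAT5 letters were present in windows of genes of both directions.

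The windows of Cyp2b13 and Cyp2b9 are shown because the genes differed by unlike amounts, -7.36 and -1.52, with nearly the same sequence before their starts. Cyp2b13 is at chr7:26061245-26061544 and Cyp2b9 at chr7:26173159-26173458, both on the plus strand of GRCm38.p6. The windows are identical at 298 of 300 bases (99.3%), and the 2 bases that differ are in capitals.
Cyp2b13: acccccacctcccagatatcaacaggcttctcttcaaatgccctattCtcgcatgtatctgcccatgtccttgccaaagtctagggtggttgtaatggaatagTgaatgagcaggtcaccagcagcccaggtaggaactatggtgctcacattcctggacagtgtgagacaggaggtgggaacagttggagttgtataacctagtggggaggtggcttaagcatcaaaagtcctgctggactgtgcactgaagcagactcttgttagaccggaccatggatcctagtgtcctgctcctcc
Cyp2b9: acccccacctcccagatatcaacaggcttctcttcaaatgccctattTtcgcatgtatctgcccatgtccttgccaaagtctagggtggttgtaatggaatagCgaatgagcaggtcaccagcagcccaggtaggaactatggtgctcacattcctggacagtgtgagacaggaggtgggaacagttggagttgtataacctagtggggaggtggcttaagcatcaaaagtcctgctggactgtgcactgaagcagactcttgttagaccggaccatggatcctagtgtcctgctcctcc

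On high-fat diet the same genotype comparison, on other arrays, gave 243 calls (1.98% of genes), 135 higher (1.1%) and 108 lower (0.881%) in αERKO. Of the 150 genes called on normal diet, 82 were also called there in the same direction, 44 higher and 38 lower, which is 54.7% of the normal-diet calls and 33.7% of the high-fat calls. None was called in the opposite direction, and 144 of 150 had the same sign. Since the genes were chosen by their normal-diet difference, smaller values on the other diet describe this choice as well, and 109 of the 150 were smaller. The 2 comparisons share no arrays, but share 1 estimate of the spread.

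Named genes differed in how far the high-fat values departed. Cyp4a12a was at 47.2, 136 and 53.4 in WT and 1162, 3346 and 5212 in αERKO on high-fat diet, and Slco1a1 at 63.0, 379 and 24.9 and 688, 1105 and 1647. In both genes the αERKO arrays were lower than on normal diet, and the differences were 4.97 and 3.34. Sybu, a syntaxin-binding protein, fell by 2.07 ± 0.30 on normal diet and differed by -0.23 ± 0.30 on high-fat diet. Cyp2b9 differed by -0.37 ± 0.17 and Hao2 by -1.75 ± 0.30, smaller than on normal diet. Nat8f5 went the other way, with 3.74 ± 0.18 on high-fat diet against 2.17 ± 0.18, and so did Cidea, with 4.77 ± 0.52 against 2.87 ± 0.52. Ccnd1, Vldlr, Elovl3 and Rnf170 had nearly the same differences on both diets, at -2.42, -1.06, 3.26 and -2.12 on high-fat diet.

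The difference between the diets was itself tested, and 0 genes passed in limma. The smallest adjusted p was 0.177, for Nat8f5, and 728 genes (5.94%) had an unadjusted p under 0.05. Of these, 49 were among the 150, and 42 of the 49 were smaller on high-fat diet. The 150 were chosen by their normal-diet difference, which enters this contrast, so these 2 counts describe that choice as well. Igfbp2 passed once WT array 2 and αERKO array 1 were left out (-1.37, adjusted p = 0.0101). It was at 13332, 14837 and 13894 in WT and 4110.5, 4883 and 4498 in αERKO on high-fat diet (-1.64 ± 0.17, adjusted p = 0.000117), separate there and overlapping on normal diet. In the male-biased list 12 genes were called higher on high-fat diet, and in the female-biased list 15 were called lower, with list medians of 1.07 and -0.91.

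**Figure D5:**
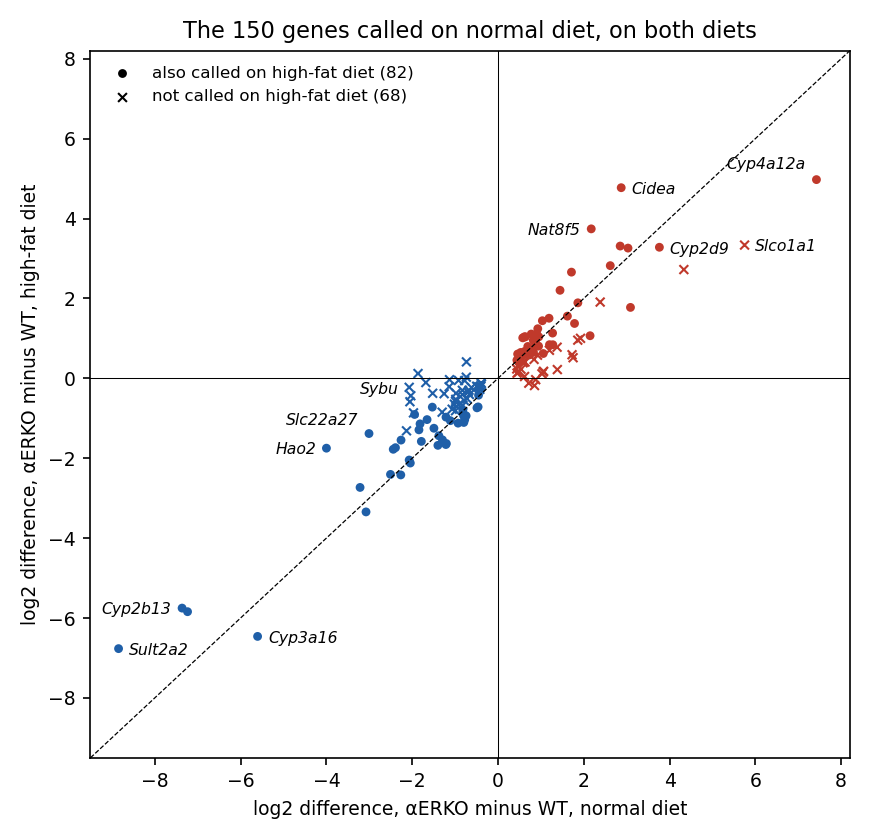
Log2 difference between αERKO and WT on high-fat diet (vertical axis) against that on normal diet (horizontal axis) for the 150 genes called on normal diet; filled circles are the 82 also called on high-fat diet, crosses the 68 that are not, and the dashed line marks equal differences. Red genes are higher and blue genes lower in αERKO on normal diet, and 144 of 150 have the same sign on both diets.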

How the data were processed

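Total RNA of liver was isolated with Trizol, cleaned on Qiagen columns with DNase and labelled with a 3' IVT kit, per the labels' protocols, and each sample was hybridised to 1 Affymetrix array. The authors deposited 1 linear intensity, the MAS5 signal, per probe set and array. The submitters' processing notes name MAS5 and Affymetrix Expression Console. Their version is not given in the sources used. The mean signal without the lowest and highest 2% was 500 on each of the 12 arrays, so arrays had been scaled before deposit. Array medians were 75.6 to 114, correlations between the 6 normal-diet arrays 0.930 to 0.976, and 0 pairs of the 12 arrays were identical. Detection calls and scanner files were not used here, and the number of arrays limits the precision.

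Of 45101 probe sets, 34958 had 1 gene symbol in the platform annotation, 932 had several and 9211 were not listed. Each gene took the probe set with the highest mean over the 12 arrays, and genes above the array median on at least 3 arrays were kept. Values were log2(signal + 16), which understates differences of dim genes. All 12 arrays entered 1 model with 4 group means in limma 3.58.1 (R 4.3.3), with an intensity trend, 8 residual and 5.85 prior degrees of freedom, and two-sided p-values adjusted by Benjamini-Hochberg over 12264 genes. Errors of differences are standard errors. The procedure was tested on simulated data. The comparison, its gene lists and the rule for naming genes were chosen with earlier results of these data known. Genes named were Esr1, the 15 largest calls each way with separate groups, called genes of a list, the 2 lowest p values of a list without calls, and called genes whose probe sets disagree. Other genes were named after their values were seen, among them list members without a call and genes outside the lists. Promoter windows came from RefSeq (GRCm38.p6) and were read with Biopython 1.88. Alternatives changed the 16 added, the filter, scaling, variance model, probe set summary and arrays used.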

Additional observations from a re-analysis of the deposited data

Results flagged for a closer look

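Paqr9, a membrane protein of the progestin and adipoQ receptor family, was separate in opposite directions on the 2 diets. It was the only 1 of the 150 called genes with this pattern. Over all genes, 15.8% were separate on normal diet and 22.5% on high-fat diet. On normal diet the signal of Paqr9 was 7622, 8645 and 6461 in WT and 3785, 4154 and 5845 in αERKO, a log2 difference of -0.74. On high-fat diet it was 4156, 4340 and 5365 in WT and 6244, 6707 and 5460 in αERKO, a difference of 0.41. The difference between the diets was 1.15 on the log2 scale, with an unadjusted p of 0.000207 in limma, and did not pass after Benjamini-Hochberg adjustment over all genes (adjusted p = 0.279). Its normal-diet call ended without WT array 1, WT array 2, αERKO array 1 or αERKO array 2 (highest adjusted p = 0.168).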

How the results depend on the processing

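The number of genes called was 150, and 94 after median centring, 83 without the intensity trend, 71 in a fit of only the 6 arrays, 97 without WT array 2 and αERKO array 1, and 95 with the acinar and muscle marker scores as covariates. The counts per list were added after seeing the data. Leaving out 1 array gave 85 to 118 calls. The PPARα list had 6 calls, and 2 with no filter on low signals, 1 after median centring, 1 without the trend, 0 in the 6 arrays alone, 2 without WT array 2 and αERKO array 1, 3 with the covariates, and 1 to 4 without 1 array. The male-biased list had 16 calls and 14 to 16 without 1 array, and the female-biased list 16 and 12 to 14. The difference between the diets gave 0 calls, and 1 each, Igfbp2, without WT array 2 and αERKO array 1 and with the covariates. The other settings kept these counts within 1.5 times, among them the fit with a replicate block (131 calls). The replicate numbers do not pair the samples: deviations of arrays with the same number correlated at -0.11, -0.15 and 0.14. Of 123 named genes 89 were called, and 40 of them kept the call in all 19 alternatives. Among 2326 values of named genes 384 lost and 5 gained a call, and 11 changed sign: Ero1b (-0.1286), Aldh7a1 (-0.0027) and Cyb5r3 (-0.0608) with the mean of all probe sets; Lyve1 (-0.0258) and Ltf (0.0306) without WT array 2 and αERKO array 1; and Reg1 and Ctrb1 without WT array 2, αERKO array 2 or αERKO array 3. Leaving out 1 array at a time, Reg1 ranged from -3.31 to 1.36, Ctrb1 from -3.98 to 1.42, Lyve1 from 0.06 to 0.69 and Ltf from -1.16 to -0.35, and the cause was not tested. In 14 called genes the group with lower signal lay under the median of every array of that group, so that their fold sizes rest on values near background.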

Other observations

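Some strong signals belong to probe sets outside the gene table. Of 602 probe sets that passed the filter and carry several gene symbols, 6 were called (0.997%), and of 3252 that are not listed in the annotation, 17 (0.523%), against 149 of 21558 with 1 symbol (0.691%). Probe set 1449525_at was at 15096, 14549 and 14264 in WT and 158, 99.4 and 124 in αERKO, a log2 difference of -6.70. Probe set 1419704_at was at 39675, 46162 and 39014 in WT and 438, 422 and 809 in αERKO (-6.24). Probe set 1417867_at was at 8.17, 2.88 and 9.43 in WT and 349, 227 and 185 in αERKO (3.53). The 2 groups did not overlap for any of these 3. No gene is named for them here.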
